A study of Mus musculus with 17 samples.

Results

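A set of 9 genes of lipid uptake, efflux and storage was followed through monocytic and granulocytic cells of the mouse spleen as a tumour grew. They were taken by name from a list that spans these steps, and all 9 were measured by a feature of a single gene, so that they make up 9 of the 19938 genes tested. The scavenger receptor genes were Cd36 (feature 10528207, chromosome 5), Msr1 (10578264, chromosome 8) and Olr1 (10548385, chromosome 6). The lipase gene was Lpl (10572130, chromosome 8), and the fatty acid carrier gene was Fabp5 (10585699, chromosome 3). All chromosomes named are those of the genes in RefSeq, and the places of the features themselves were not checked. Efflux was represented by the lipid carrier gene Apoe (10560624, chromosome 7) and the pump genes Abca1 (10512949, chromosome 4) and Abcg1 (10443730, chromosome 17), and storage by the lipid droplet gene Plin2 (10514221, chromosome 4).

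The data were 17 Affymetrix arrays (Mouse Gene 1.0 ST), whose probes lie along the whole transcript. CD11b+ cells of pooled spleens from female BALB/c mice were enriched magnetically and sorted by flow cytometry into Mo-MDSCs (Mo below; Ly-6C high, Ly-6G low) and PMN-MDSCs (PMN below; Ly-6G high, Ly-6C low). The mice were naive, or had received 100000 Her-2/CT26 cells under the skin 3 or 6 weeks before. CT26 is a colon carcinoma line of this strain, here labelled as carrying Her-2. There were 3 arrays each of Mo from naive mice, at 3 weeks and at 6 weeks, and 4, 2 and 2 of PMN. The study asked which factors let these cells suppress more as tumours grow. The labels give no ages and do not say whether each replicate was its own pool of spleens. The p-values therefore rest on the spread of the arrays within groups, and that spread may be technical.

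Myeloid cells take up modified lipoproteins through scavenger receptors and fatty acids after lipases release them, store the excess as esters in droplets, and pass cholesterol to apolipoproteins through ATP-binding cassette pumps. Lipid-laden myeloid cells are well known from atherosclerotic plaques, where such macrophages are called foam cells, and lipid uptake by myeloid-derived suppressor cells has been described in tumour-bearing mice. The product of Olr1, the oxidised LDL receptor LOX-1, is also used as a surface marker of granulocytic suppressor cells in human blood.

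Promoter windows of RefSeq (GRCm38.p6, 250 bases before to 50 after a start) were held for 5 of the 9 genes, in 7 windows because Apoe had 3; the others were Msr1, Abcg1, Lpl and Fabp5. The windows of Olr1 and Plin2 are shown to 25 bases after the start because both genes rose in PMN at 6 weeks (below), Olr1 from chr6:129507141-129507415 and Plin2 from chr4:86670035-86670309, both on the minus strand, 5′ to 3′. Capitals mark matches to the motifs searched.
Olr1: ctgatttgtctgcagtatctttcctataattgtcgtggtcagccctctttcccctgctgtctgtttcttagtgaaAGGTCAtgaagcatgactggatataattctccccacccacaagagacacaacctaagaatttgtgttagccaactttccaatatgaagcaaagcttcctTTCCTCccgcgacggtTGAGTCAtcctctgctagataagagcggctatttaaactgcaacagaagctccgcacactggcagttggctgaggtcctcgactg
Plin2: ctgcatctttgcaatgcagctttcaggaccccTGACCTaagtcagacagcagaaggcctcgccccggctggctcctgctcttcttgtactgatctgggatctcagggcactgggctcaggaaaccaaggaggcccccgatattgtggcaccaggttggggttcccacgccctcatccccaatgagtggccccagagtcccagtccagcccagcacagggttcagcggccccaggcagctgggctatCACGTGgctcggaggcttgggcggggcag
The search covered both strands of the whole window. The letters TGANTCA stood for AP-1, TTGCNNAA for C/EBP, TATAAA for the TATA box, CACGTG for the E-box, GAGGAA for PU.1 and AGGTCA for the core site of nuclear receptors, which is also part of the repeats DR1 and DR4. In Olr1, AP-1 matched 60 bases before the start, PU.1 matched 76 bases before it on the reverse strand, and a core site 175 bases before it. In Plin2, an E-box match began 4 bases before the start and crossed it, and a core site lay 218 bases before it on the reverse strand. The Cd36 window held a core site and the Abca1 window an E-box and a TATA match; the 3 Apoe windows held only PU.1 and TATA matches, and no window of the 5 genes matched C/EBP, DR1 or DR4. Of 32841 windows searched, 7.81% held the AP-1 letters, 10.8% C/EBP, 13.6% TATA, 7.15% the E-box, 28.3% PU.1, 16.3% the core site, 0.0396% DR1 and 0.0152% DR4. A match is a stretch of letters, not a measured binding site.

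Levels are given as log2 intensity of the deposited RMA values, and changes as differences of log2 levels with their standard error (SE) from one limma fit over all arrays. A gene passed at a Benjamini-Hochberg adjusted p below 0.05 over the 19938 genes; all adjusted p-values are limma's. The median intensity of an array was 95.25 to 114 for Mo and 81.01 to 95.9 for PMN. The 12 neutrophil markers summed to an intensity of 2435 to 3197 in naive Mo and 36541 to 39237 in naive PMN, and the 10 monocyte markers to 34327 to 38939 and 3482 to 5746. In Mo, the neutrophil sum was 11115, 24643 and 12062 on the 6-week arrays of replicates 1, 2 and 3. Of the 12 markers, 9 were higher than naive and 1, Csf3r, was lower (-0.37). The 2 that did not pass were Retnlg (5.55, 8.07 and 5.70 on those arrays) and Mmp9 (6.51, 7.88 and 6.36). In naive Mo, Retnlg stood at 5.70 to 6.10 and Mmp9 at 6.38 to 6.65. Ly6g, which encodes the antigen sorted against in Mo, stood at 6.56, 8.95 and 6.43 on the 6-week arrays against 5.97 to 6.18 in naive Mo. The 16 macrophage markers summed to 4863 to 8945 in naive PMN and 6395 to 7102 in naive Mo. The brightest of them was Slc40a1 in naive PMN (10.93 to 11.26) and Trf in naive Mo (11.72 to 11.88). Different genes thus led the sums in the subsets. The 9 measured B cell markers all fell in PMN at 6 weeks, from a sum of 3102 to 3643 down to 1173 to 1261. At 6 weeks 21.8% of all genes were called higher than naive in Mo, and 40% lower in PMN. Since these are bulk samples, fewer cells of a type and less RNA per cell cannot be told apart. The arrays of each subset appeared to have been normalized apart, so levels in Mo and PMN are described side by side without a test.

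**Figure D1:**
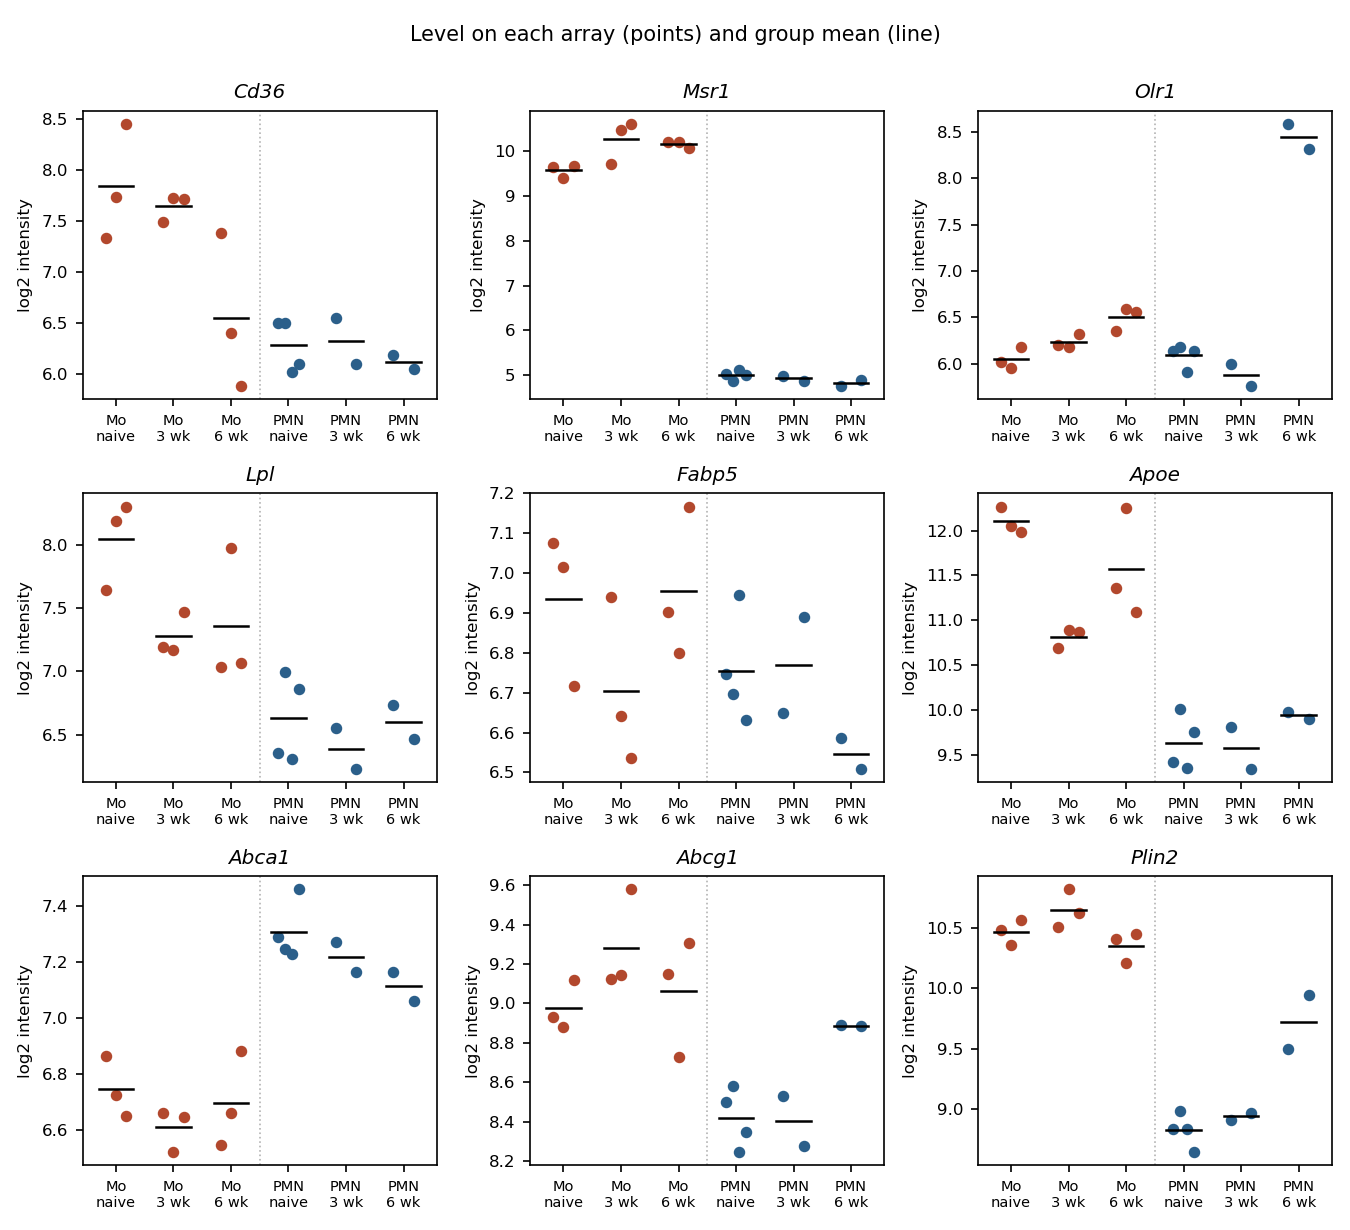
Level of each of the 9 genes (log2 intensity, own scale in each panel) on the 3 naive, 3 three-week and 3 six-week Mo arrays and the 4, 2 and 2 PMN arrays; each point is an array and each line a group mean. Olr1 stands at 8.31 and 8.59 on the 6-week PMN arrays and at 6.58 or below on all others, while Msr1 separates the subsets at every stage.

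Of the 9 genes, 5 passed in at least 1 stage comparison of Mo, 3 in PMN, 1 in both (Olr1) and 2 in none (Abca1 and Fabp5). In Mo at 6 weeks against naive, Olr1 and Msr1 rose and Cd36 and Lpl fell, 4 of 9 passing against 46.2% of all genes called (21.8% higher and 24.4% lower). In PMN at 6 weeks, Olr1, Plin2 and Abcg1 rose and 0 of 9 fell, against 65.4% of all genes called (25.5% higher and 40% lower). Counted in either direction, the shares of members called were no higher than the 46.2% and 65.4% of all genes. The median change of the 9 genes was -0.05 in Mo and -0.03 in PMN, against -0.09 and -0.18 over all genes. Centring each array on its median moved the median change of all genes at 6 weeks (Mo -0.09 to 0.03, PMN -0.18 to 0.02) and the share of higher genes among those called from 47.2% to 69.5% and from 38.9% to 64.4%; under it Lpl in Mo no longer passed and the other 6 calls held.

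**Figure D2:**
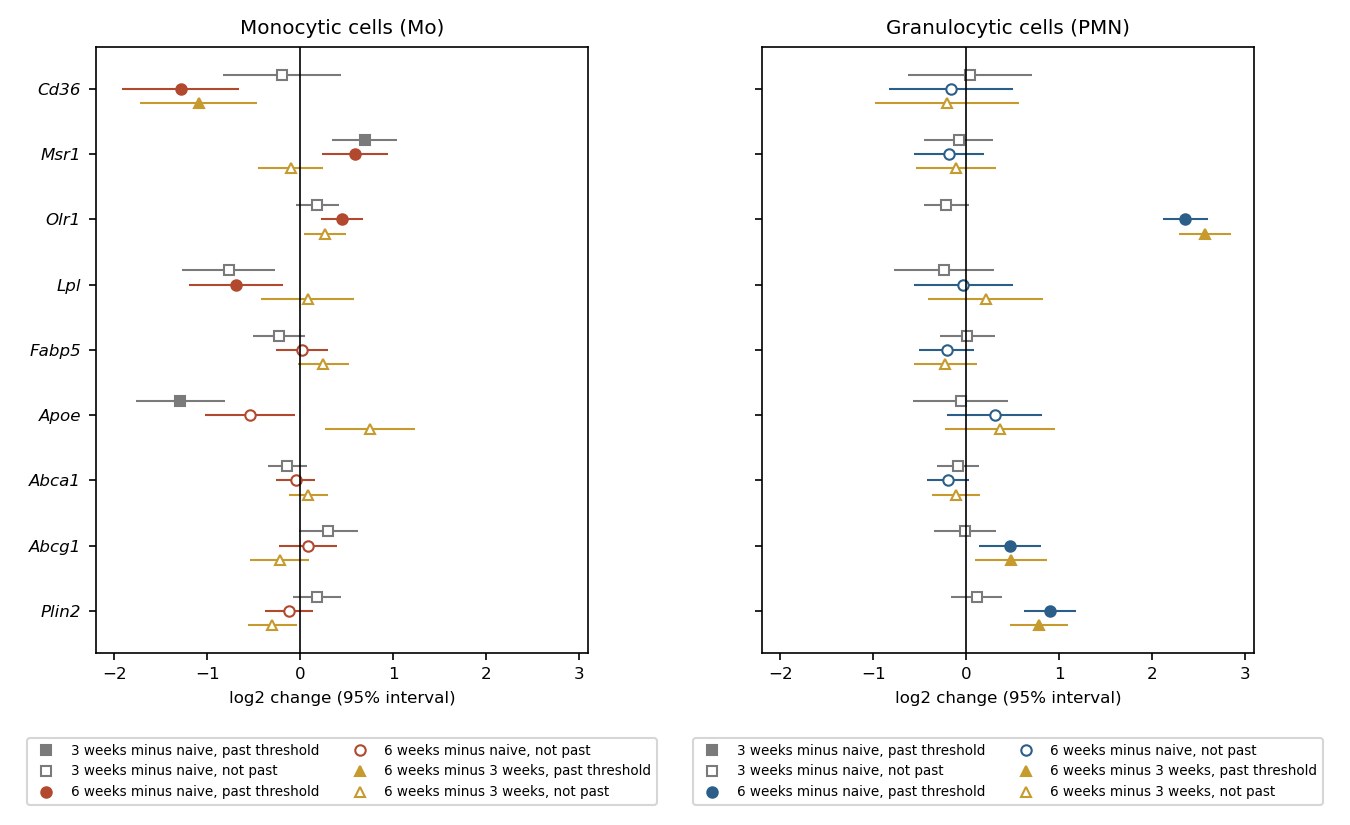
Log2 change of each gene with its 95% interval in the 3 stage comparisons of Mo (left) and PMN (right); filled symbols passed an adjusted p of 0.05. In PMN the filled symbols are Olr1, Abcg1 and Plin2, all to the right of zero and all from comparisons with the 6-week arrays, whereas in Mo they lie on both sides.

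Cd36 encodes a scavenger receptor that also takes up long-chain fatty acids. Its level in Mo was 7.33, 7.73 and 8.45 on the naive arrays, 7.49, 7.72 and 7.71 at 3 weeks, and 7.38, 6.40 and 5.88 at 6 weeks. The 6-week array of replicate 1 lay within the naive range and the other two lay below every other Mo array. The 6-week mean was 2.43-fold below naive (-1.28 ± 0.30 SE, adjusted p = 0.0038), and this call held under every alternative run, with changes from -1.70 to -0.95 when single arrays were left out. The 95th percentile of 1190 smell receptor genes (olfactory and vomeronasal) was 6.48 in 6-week Mo, above Cd36 in replicates 2 and 3. The size of the fall may therefore depend on the background. Against 3 weeks the difference was -1.09 ± 0.30 (adjusted p = 0.0313), 1 of 9 members past the threshold in a comparison in which 7.51% of all genes were called (4.38% higher and 3.13% lower). That call was lost when replicate 2 or 3 of either stage was left out (adjusted p from 0.0857 to 0.213) and with each subset fitted alone (0.157), quantile normalization over all arrays (0.061), a floor of 64 on intensity (0.116) or all 35557 features tested (0.0741). In PMN, Cd36 lay between 6.02 and 6.55 on all 8 arrays and changed by -0.16 at 6 weeks (95% interval -0.83 to 0.51). All 8 values lay below that percentile of their group (7.21 in naive mice, 7.20 at 3 weeks and 6.54 at 6 weeks), so a change there may not show. The change in Mo minus that in PMN was -1.12 ± 0.44 (adjusted p = 0.0911), which did not pass, though it did without Mo naive replicate 1 (-1.37, 0.0402) or Mo 6-week replicate 1 (-1.53, 0.0046).

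The macrophage marker sum on the 6-week Mo arrays was 5968, 5014 and 4015 in replicates 1, 2 and 3, the same order as Cd36. Trf, the brightest of these markers, stood at 11.61, 11.10 and 10.71 there, so the sum leans on 1 gene. The mean log2 level of the 16 markers was 7.30, 7.23 and 6.97, in the same order. The sums of B cell (957, 703 and 684), T and NK cell (1074, 1014 and 907) and platelet markers (739, 626 and 560) ran in that order too. In naive Mo the macrophage sums of 6858, 6395 and 7102 did not follow Cd36, which was highest in replicate 3 but lowest in replicate 1. At 6 weeks, 7 of 16 macrophage markers were lower and 1 higher than in naive Mo. Of the T and NK cell markers, 7 of 9 were lower, and of the monocyte markers 7 of 10 were lower and 2 higher. These counts stand beside 24.4% of all genes lower and 21.8% higher. The part of these cells in the fall of Cd36 was not tested.

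Msr1, which encodes the class A scavenger receptor of macrophages and monocytes, was the member that separated the subsets most. In Mo it stood at 9.66, 9.41 and 9.67 in naive mice, 9.71, 10.48 and 10.62 at 3 weeks, and 10.22, 10.21 and 10.08 at 6 weeks. Every tumour-bearing Mo array lay above every naive one, and 3-week replicate 1 only just so. Msr1 rose by 0.69 ± 0.17 at 3 weeks (1.62-fold, adjusted p = 0.033) and by 0.59 ± 0.17 at 6 weeks (1.5-fold, adjusted p = 0.0113). The 3-week call was lost when either naive replicate 1 or 2 or either 3-week replicate 2 or 3 was left out (adjusted p from 0.13 to 0.241) and with 4 other settings, such as each subset fitted alone (0.175), while the 6-week call was lost without naive replicate 2 (0.0534) and with each subset fitted alone (0.0525). In PMN, Msr1 lay between 4.75 and 5.12, below the level of 6 that was taken as dim here, and no PMN comparison passed. The mean over all Mo arrays was 33.5-fold above that over all PMN arrays, or 27.1-fold after joint quantile normalization; with the PMN signal dim, the size of this ratio depends on the background.

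At 6 weeks the change of Msr1 in Mo exceeded that in PMN by 0.78 ± 0.24 (adjusted p = 0.0355), where 17.5% of all genes differed (6.47% higher and 11% lower in Mo than in PMN). Because the PMN signal was dim, its change of -0.19 need not be one of Msr1 RNA; with a floor of 64, which sets the PMN change to 0, the difference was 0.59 and did not pass (adjusted p = 0.157). This difference was lost in 8 of the 17 fits that left out 1 array, those without Mo naive replicate 2, Mo 6-week replicate 1 or 2, PMN naive replicate 1, 3 or 4, or either 6-week PMN array (adjusted p from 0.054 to 0.145), and in 5 other settings, among them median centring (0.129) and joint quantile normalization (0.116).

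Olr1 had the largest change among the members. In PMN its level was 6.14, 6.18, 5.91 and 6.13 in naive mice, 6.00 and 5.76 at 3 weeks, and 8.59 and 8.31 at 6 weeks. Both 6-week arrays stood more than 2 log2 units above every other PMN array, and of the 3-week arrays 1 lay within the naive range and 1 below it. The rise at 6 weeks was 5.13-fold over naive (2.36 ± 0.11 SE, adjusted p = 9.02e-10) and 5.95-fold over 3 weeks (2.57 ± 0.13, adjusted p = 2.36e-09), a comparison in which 3 of 9 members rose and 58.7% of all genes were called (23.7% higher and 34.9% lower). At 3 weeks the change was -0.22 ± 0.11 (adjusted p = 1).

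In Mo, Olr1 moved the same way by less. It stood at 6.01, 5.95 and 6.18 in naive mice, 6.20, 6.18 and 6.32 at 3 weeks, and 6.35, 6.58 and 6.55 at 6 weeks, so that the groups did not overlap, though naive and 3-week arrays met at 6.18. The rise at 6 weeks was 0.45 ± 0.11 (1.37-fold, adjusted p = 0.0046), and the 3-week difference of 0.19 did not pass (adjusted p = 0.224). The fold change in PMN was 3.75 times that in Mo at 6 weeks against naive (Mo minus PMN -1.91 ± 0.16, adjusted p = 1.11e-06) and 4.95 times at 6 against 3 weeks (-2.31 ± 0.17, adjusted p = 4.19e-07), where 29.2% of all genes differed (11.9% higher and 17.3% lower in Mo than in PMN). All calls on Olr1 held under every alternative run. The 95th percentile of 1190 smell receptor genes (olfactory and vomeronasal) was 7.10 in naive Mo and 7.21 in naive PMN. The naive Olr1 means, 6.05 and 6.09, lay below it. At 6 weeks this percentile was 6.48 in Mo, near Olr1 there, and 6.54 in PMN, below both Olr1 arrays. The sizes of the Mo rise and of the PMN fold changes may therefore depend on the background. Of the 1190 genes, 0 were called higher at 6 weeks against naive in either subset.

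The rise of Olr1 in Mo went along with that of the neutrophil markers given above. Without 6-week replicate 2, the Mo array with the highest neutrophil sum, Olr1 rose by 0.41 (adjusted p = 0.0257), but the arrays kept still had neutrophil sums of 11115 and 12062, above all naive Mo arrays. The part of neutrophil RNA in the Mo values was not tested. In PMN, the neutrophil markers themselves changed between naive and 6 weeks, with 9 of 12 higher and 1 lower. Their sum was 74291 and 79301 on the 6-week arrays. In that comparison 25.5% of all genes were called higher and 40% lower.

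**Figure D3:**
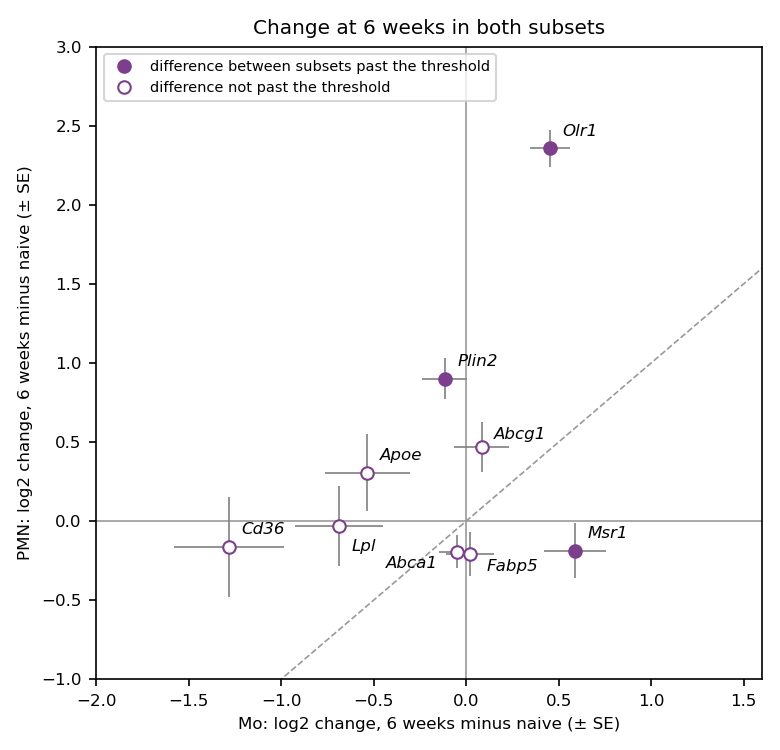
Log2 change from naive to 6 weeks in Mo (horizontal) and PMN (vertical) for the 9 genes, with SE bars; the dashed line marks equal change, and filled points are genes whose change differed between the subsets at an adjusted p of 0.05. Olr1 (0.45, 2.36) and Plin2 (-0.12, 0.90) lie above the line and Msr1 (0.59, -0.19) below it.

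Lpl encodes lipoprotein lipase, which frees fatty acids from circulating triglyceride. In Mo it stood at 7.64, 8.19 and 8.30 in naive mice, 7.19, 7.17 and 7.46 at 3 weeks, and 7.03, 7.97 and 7.06 at 6 weeks. The 3-week arrays all lay below the naive ones, and 6-week replicate 2 lay among the naive arrays. The 6-week mean was 1.61-fold lower (-0.69 ± 0.24, adjusted p = 0.0284). This call was lost when naive replicate 2 or 3 or 6-week replicate 1 or 3 was left out (adjusted p from 0.0876 to 0.126), with median centring (0.0907), and in 3 other settings. In the same comparison, the 1190 measured genes of smell receptors (olfactory and vomeronasal) had a median change of -0.33. The difference at 3 weeks was -0.77 ± 0.24 (adjusted p = 0.0603) and passed without 3-week replicate 1 (0.0387) or without 6-week replicate 1 or 2 (0.0426 and 0.043), and with dim genes left out (0.0492). In PMN the level ran from 6.23 to 6.995 and no stage comparison passed, with a change of -0.03 at 6 weeks (95% interval -0.56 to 0.51). The change in Mo minus that in PMN was -0.66 (adjusted p = 0.231), and -0.97 (0.0372) without Mo 6-week replicate 2.

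Apoe encodes apolipoprotein E, a carrier that accepts cholesterol from cells and is made in quantity by macrophages. In Mo it was highest in naive mice at 12.27, 12.05 and 11.99, lowest at 3 weeks at 10.69, 10.89 and 10.87, and spread at 6 weeks at 11.36, 12.26 and 11.09. No 3-week array overlapped either other stage, while 6-week replicate 2 stood within the naive range. The fall at 3 weeks was 2.44-fold (-1.29 ± 0.23, adjusted p = 0.0138), and with Msr1 it made 2 of 9 members past the threshold where 6.03% of all genes were called (5.2% higher and 0.833% lower). The size stayed between -1.35 and -1.21 when single arrays were left out, but the call was lost when naive replicate 1 or 2 or 3-week replicate 2 or 3 was left out (adjusted p from 0.0794 to 0.0938), with a floor of 64 (0.0535) and with Mo fitted alone (0.175).

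Neither later difference of Apoe in Mo passed. At 6 weeks against naive it was -0.53 ± 0.23 (adjusted p = 0.0643), and it was -0.88 (adjusted p = 0.00313) without 6-week replicate 2 and -0.73 (0.0302) with joint quantile normalization. At 6 against 3 weeks it was 0.75 ± 0.23 (adjusted p = 0.0562), and it passed without 6-week replicate 1 (0.86, adjusted p = 0.0296), 6-week replicate 3 (0.99, adjusted p = 0.0134) or PMN naive replicate 2 (adjusted p = 0.0475), and with dim genes left out (0.0423). The 6-week array of replicate 2 was also the highest of its group for Lpl and for the neutrophil sum, and lay between the other two for the macrophage sum. It was highest as well for the erythroid sum (5028, against 3466 in replicate 1 and 1150 in replicate 3). Its dendritic cell sum was also highest (1643, against 1590 and 1241), with Flt3 at 9.60 against 8.71 and 8.74. The mean log2 level of the dendritic cell markers, however, was higher in replicate 1 (7.001) than in replicate 2 (6.735) and replicate 3 (6.597). The part of these cells in the level of Apoe was not tested.

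In PMN, Apoe and Lpl varied together among naive arrays. Apoe stood at 9.42, 10.01, 9.36 and 9.76 and Lpl at 6.35, 6.995, 6.31 and 6.86 in replicates 1 to 4. The macrophage marker sums of those arrays were 5424, 8945, 4863 and 7264, in the same order, so that replicates 2 and 4 were high in all 3. The platelet marker sums, 963, 1037, 953 and 988, ran in that order too. All 4 Lpl values lay below the 95th percentile of the smell receptor genes in naive PMN, 7.21, so their differences may depend on the background. At 3 weeks Apoe was 9.81 and 9.34 with macrophage sums of 5647 and 4959, and at 6 weeks 9.98 and 9.90 with sums of 6983 and 6927. Lpl on these arrays was 6.55 and 6.23 at 3 weeks and 6.73 and 6.47 at 6 weeks. Apoe changed by 0.31 in PMN at 6 weeks (95% interval -0.21 to 0.82), which did not pass, and the difference between the subsets in the 6-week change did not pass (Mo minus PMN -0.84 ± 0.33, adjusted p = 0.0982) except without Mo 6-week replicate 2 (-1.19, 0.0043). At 3 weeks the difference was -1.23 ± 0.33 (adjusted p = 0.251), which passed without Mo 3-week replicate 1 (0.0381). Whether macrophages or other cells in the PMN gate account for part of the Apoe and Lpl signal there was not tested.

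**Figure D4:**
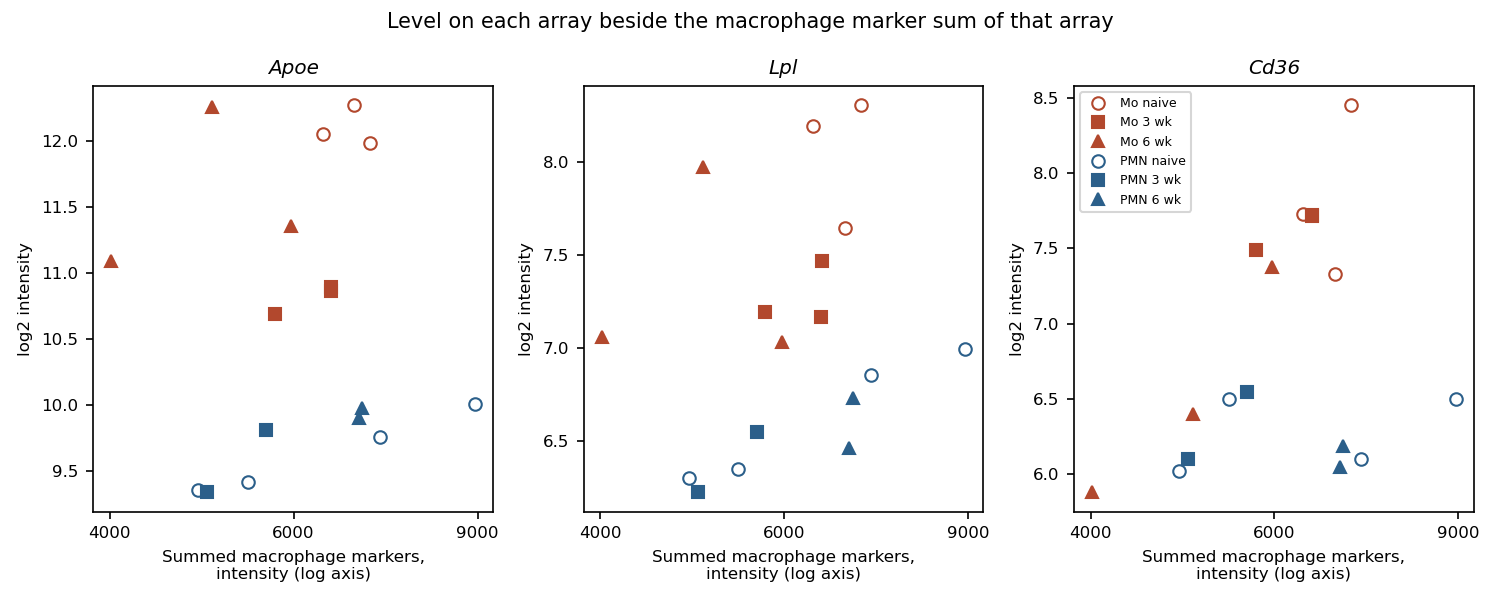
Log2 intensity of Apoe, Lpl and Cd36 on each of the 17 arrays against the summed intensity of the 16 macrophage markers of the same array (log axis); colours mark the subset and symbols the stage. Within naive PMN (open blue circles), Apoe and Lpl are highest on the arrays with sums of 8945 and 7264, and within 6-week Mo (red triangles) Cd36 falls from 7.38 to 5.88 as the sum goes from 5968 to 4015. Within naive Mo (open red circles) neither Apoe nor Cd36 follows the order of the sums, 6858, 6395 and 7102.

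Of the efflux pump genes, Abca1 changed little. Abca1, whose product loads cholesterol onto lipid-poor apolipoprotein A-I, lay between 6.52 and 6.88 in Mo and between 7.06 and 7.46 in PMN. All 8 PMN arrays lay above all 9 Mo arrays, by 1.47-fold on average and 1.85-fold after joint quantile normalization. At 6 weeks it changed by -0.05 in Mo (95% interval -0.26 to 0.16) and by -0.19 in PMN (-0.42 to 0.03), and no comparison passed. In naive mice, at 3 weeks and at 6 weeks the 95th percentile of the smell receptor genes was 7.10, 6.75 and 6.48 in Mo. The Abca1 means there were 6.75, 6.61 and 6.70, above it only at 6 weeks. In PMN the percentile was 7.21, 7.20 and 6.54 and the Abca1 means 7.31, 7.22 and 7.11, near it except at 6 weeks. The size of the Abca1 changes and of the ratio between the subsets may therefore depend on the background.

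Abcg1, whose product exports cholesterol to HDL particles, stood in PMN at 8.50, 8.58, 8.25 and 8.35 in naive mice, 8.53 and 8.28 at 3 weeks, and 8.89 and 8.89 at 6 weeks. Both 6-week arrays lay above all others. The rise was 1.38-fold over naive (0.47 ± 0.16, adjusted p = 0.0163) and 1.4-fold over 3 weeks (0.48 ± 0.18, adjusted p = 0.0323). After joint quantile normalization the change over naive was 0.06 (adjusted p = 0.724) and that over 3 weeks 0.10 (0.625). The share of genes with a lower mean than Abcg1 in PMN was 91.7% in naive mice and 89.2% at 6 weeks. Without either 6-week array the remaining one was assumed to vary like the other groups, and neither rise passed (adjusted p = 0.079 and 0.0767 over naive, 0.102 and 0.0996 over 3 weeks); the rise over 3 weeks was also lost without 3-week replicate 2 (0.2).

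In Mo, Abcg1 stood at 8.93, 8.88 and 9.12, then 9.12, 9.14 and 9.58, then 9.15, 8.73 and 9.31, and no stage comparison passed. Between 3 and 6 weeks the Mo change was below the PMN change by 0.70 on the log2 scale (-0.70 ± 0.24, adjusted p = 0.0339). That difference was lost without Mo 3-week replicate 3, Mo 6-week replicate 2, PMN 3-week replicate 2 or either 6-week PMN array (adjusted p from 0.0718 to 0.145), and was -0.36 (0.211) after joint quantile normalization.

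Plin2 encodes perilipin 2, which coats lipid droplets and is often read as a sign of them. In PMN it stood at 8.83, 8.98, 8.83 and 8.64 in naive mice, 8.91 and 8.97 at 3 weeks, and 9.50 and 9.95 at 6 weeks. The 6-week arrays lay above all others but differed from each other by more than the naive arrays did. The rise was 1.87-fold over naive (0.90 ± 0.13, adjusted p = 2.9e-05) and 1.72-fold over 3 weeks (0.79 ± 0.15, adjusted p = 0.00053). In Mo it stood at 10.48, 10.36 and 10.57, then 10.51, 10.82 and 10.63, then 10.41, 10.21 and 10.45, with no comparison past the threshold and a change of -0.12 at 6 weeks (95% interval -0.38 to 0.14).

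The change of Plin2 differed between the subsets, by -1.02 ± 0.18 (Mo minus PMN) at 6 weeks against naive (adjusted p = 0.00088) and by -1.08 ± 0.19 at 6 against 3 weeks (adjusted p = 0.00063). The rises in PMN and these differences held under every alternative run, with the PMN change over naive from 0.68 to 1.12 when single arrays were left out. The share of genes with a lower mean than Plin2 in PMN hardly moved, at 94.4% in naive mice, 95.1% at 3 weeks and 94.9% at 6 weeks. The upper quartile of intensity was 182.8 to 183.5 on naive PMN arrays and 201.8 and 196.9 on 6-week ones, and the part of this shift was not tested. Joint quantile normalization gave smaller rises of Plin2 in PMN, 0.54 over naive (adjusted p = 0.0016) and 0.47 over 3 weeks (0.0129). The fall of B cell markers and the rise of neutrophil markers in 6-week PMN stood beside these changes, and their part was not tested.

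Fabp5, whose product carries fatty acids within the cell, lay between 6.53 and 7.17 in Mo and between 6.51 and 6.94 in PMN, and passed in no comparison. Without Mo 3-week replicate 1 it passed in Mo at 3 weeks (-0.35, adjusted p = 0.0432, against -0.23 with it). It changed by 0.02 in Mo at 6 weeks (95% interval -0.26 to 0.30) and by -0.21 in PMN (-0.50 to 0.09). A second feature with the symbol of the gene, dimmer than the one used, gave 0.03 and -0.21. Which of them lies at the gene itself was not checked. Mouse Fabp5 has processed pseudogenes with nearly the same sequence, so signal may be shared with such copies. In naive and 3-week arrays of both subsets, the group means of Fabp5 lay below the 95th percentile of the smell receptor genes. The size of its changes may therefore depend on the background.

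No member passed in PMN at 3 weeks against naive in limma, where 0% of all genes were called and 0 of 9 members had an unadjusted p under 0.05. No member differed between the subsets in the 3-week change either, where 0.00502% of all genes did and 3 members (Apoe, Olr1 and Msr1) had an unadjusted p under 0.05. Without Mo 3-week replicate 1, Msr1 passed there (1.05, adjusted p = 0.0025).

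Levels over all arrays of a subset, which carry no test, were higher in Mo for Msr1, for Apoe (3.48-fold, 2.03-fold after joint quantile normalization), for Plin2 (2.67-fold and 1.62-fold), for Cd36 (2.13-fold and 1.83-fold) and for Lpl (2-fold and 1.64-fold). As deposited, the ranges of Cd36 overlapped between the subsets and those of Apoe, Plin2 and Lpl did not. After joint quantile normalization those 3 overlapped as well, Apoe with a lowest Mo level of 10.36 and a highest PMN level of 10.51, Plin2 with 9.82 and 10.09, and Lpl with 6.91 and 7.18. The ratios of Cd36 and Lpl may depend on the background. Both genes lay below the 95th percentile of the smell receptor genes in naive and 3-week PMN. Olr1 was 1.29-fold higher in PMN, through the 6-week arrays. Abcg1 was 1.49-fold higher in Mo as deposited but 1.08-fold higher in PMN after joint quantile normalization, and Fabp5 turned likewise from 1.12-fold to 1.06-fold, so neither has an order here.

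Around these genes, 89 further lipid genes of 6 lists were measured, and 29 rose and 18 fell in Mo at 6 weeks (52.8% called) and 33 rose and 26 fell in PMN (66.3%). Median centring gave 33 rises and 11 falls in Mo and 38 and 14 in PMN, so the balance of rises and falls depends on the scaling. These shares stand beside 46.2% and 65.4% of all genes. In PMN at 3 weeks 0 of 89 passed in limma. For the falls, the values of 1190 genes of olfactory and vomeronasal receptors, which serve smell, stand beside these counts: 591 were called lower and 0 higher in Mo at 6 weeks, with a median change of -0.33, and 682 lower and 0 higher in PMN, with a median of -0.36. Falls of up to about that size in genes of low level are given below as measured, and the part of this shift in them was not tested. The lists were chosen with earlier results of these data known.

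**Figure D5:**
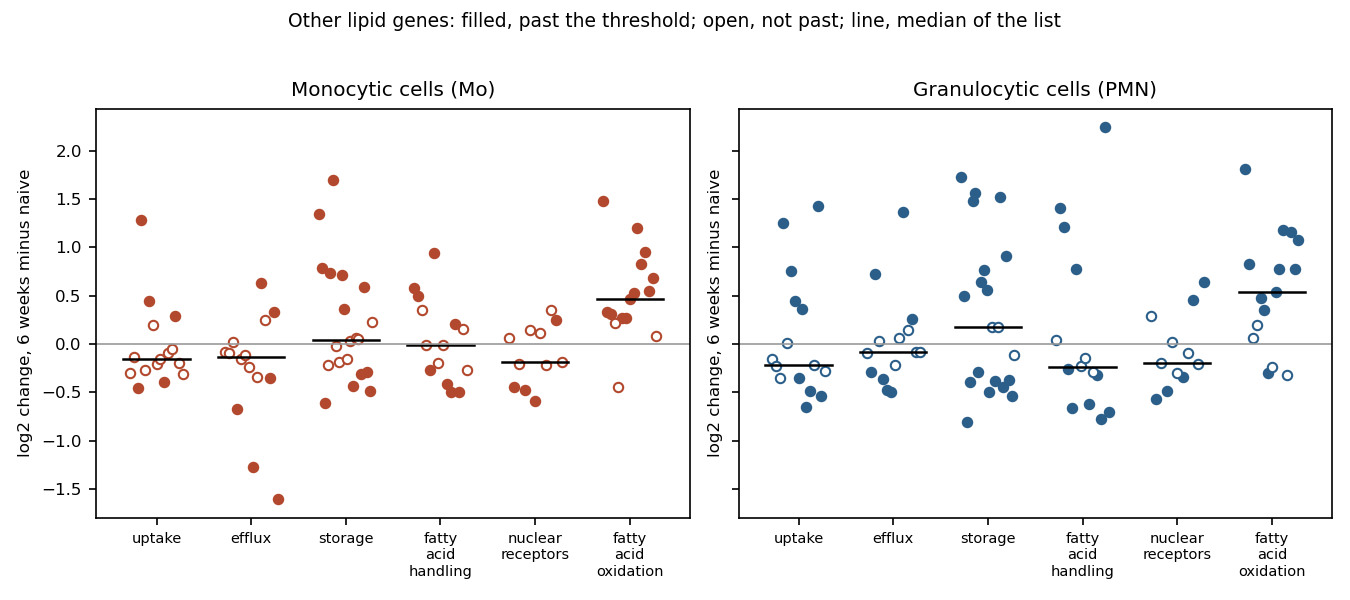
Log2 change from naive to 6 weeks of the 89 further lipid genes by list, in Mo (left) and PMN (right); filled points passed an adjusted p of 0.05 and lines are list medians. Fatty acid oxidation has a median of 0.47 in Mo and 0.53 in PMN, and the other medians lie between -0.24 and 0.17.

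Among 15 other receptors and transporters, 3 rose and 2 fell in Mo and 5 rose and 4 fell in PMN. Got2, the mitochondrial aspartate aminotransferase that has also been described as a membrane fatty acid binding protein, rose by 1.28 ± 0.12 in Mo and 1.26 ± 0.13 in PMN (adjusted p = 1.12e-06 and 5.77e-07). Slc27a4, a fatty acid transport protein, rose by 1.43 ± 0.10 in PMN (adjusted p = 3.14e-08). The lipoprotein receptor relative Lrp10 rose by 0.75 and the scavenger receptor gene Scarf1 fell by 0.66 in PMN. In Mo, Lrp10 (0.45), Scarf1 (-0.40) and the membrane chemokine and scavenger receptor gene Cxcl16 (-0.45) passed as well, but each was lost with joint quantile normalization and without naive replicate 1 or 6-week replicate 2. Cxcl16 was also lost without naive replicate 2 or 6-week replicate 1, Lrp10 without naive replicate 2 or 6-week replicate 3, Scarf1 without 6-week replicate 3, and Cxcl16 and Scarf1 with median centring, under which 4 genes of this list rose and 0 fell in Mo.

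Of 14 other efflux and sterol genes, 2 rose and 4 fell in Mo and 3 rose and 4 fell in PMN. Pltp, the phospholipid transfer protein, fell in Mo from 9.89 ± 0.09 to 8.29 ± 0.34 (SD, n = 3 each; change -1.60 ± 0.13 SE, adjusted p = 2.71e-07), and Cyp27a1, the sterol 27-hydroxylase, by 1.28 on the log2 scale (adjusted p = 2.93e-06). The transporter gene Abca9 fell in Mo by 0.67. Nceh1, a neutral cholesterol ester hydrolase, rose by 0.64 in Mo and by 1.36 ± 0.17 in PMN (adjusted p = 0.00619 and 6.34e-06). Abca7, a pump related to Abca1, rose by 0.73 in PMN. Ch25h (-0.49) and Apoc1 (-0.47) passed in PMN but were lost with the floor of 64, and Apoc1 also with median centring, under which 4 genes of this list rose and 1 fell in PMN.

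Of 20 other droplet and triglyceride genes, 7 rose and 5 fell in Mo and 9 rose and 8 fell in PMN. Median centring gave 7 and 3 in Mo and 11 and 4 in PMN, and joint quantile normalization 6 and 2 in Mo and 8 and 7 in PMN. The genes with the largest changes all rose, and Dgat2, which makes triglyceride, and Abhd5, an activator of its breakdown, led in both subsets. Dgat2 went from 7.64 ± 0.11 to 9.33 ± 0.38 in Mo (SD, n = 3 each) and from 8.03 ± 0.10 (n = 4) to 9.58 ± 0.08 (n = 2) in PMN, changes of 1.69 and 1.56. Abhd5 rose by 1.34 in Mo and 1.73 in PMN. Dgat1, the other triglyceride-making acyltransferase, rose by 0.74 in Mo and 1.48 in PMN. The monoglyceride lipase gene Mgll rose by 1.52 in PMN and the seipin gene Bscl2 by 0.79 in Mo. These 8 calls held under every alternative run.

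Of 14 other fatty acid binding, activating and lipase genes, 4 rose and 4 fell in Mo and 4 rose and 6 fell in PMN. Lipg, endothelial lipase, rose by 2.24 ± 0.22 in PMN (adjusted p = 5.55e-07). Acsl4 and Acsl5, which activate fatty acids to acyl-CoA, rose there by 1.4 and 1.21, and Acsl4 rose in Mo by 0.50, a call lost without naive replicate 1 or 6-week replicate 3. Dbi, the acyl-CoA binding protein, rose by 0.94 in Mo and 0.78 in PMN. Acot7, an acyl-CoA thioesterase, rose by 0.58 in Mo, and Gpihbp1, which anchors lipoprotein lipase on capillaries, fell there by 0.50.

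Of 11 sensors and regulators, 1 rose and 3 fell in Mo and 2 rose and 3 fell in PMN. Pparg, a nuclear receptor that drives Cd36 in macrophages, fell in Mo by 0.58 (adjusted p = 0.0034), a call that held under every alternative run. Ppara and Nr0b2 fell in Mo by 0.47 and 0.44, both lost with joint quantile normalization, and Srebf1 rose by 0.25, lost when naive replicate 1 or 2 or 6-week replicate 2 or 3 was left out. In PMN, Srebf2, which drives cholesterol synthesis, rose by 0.64 (adjusted p = 0.00018), lost with joint quantile normalization. Rxrb rose by 0.45 and Ppara fell by 0.49, both lost without 6-week replicate 2, and Nr0b2 fell by 0.57, lost with the floor of 64.

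Mitochondrial fatty acid oxidation had the most uniform direction. In Mo at 6 weeks 12 of 15 genes rose and 0 fell, with a median change of 0.47 against -0.09 over all genes. In PMN 10 rose and 1 fell, with a median of 0.53 against -0.18. The shares of all genes called higher were 21.8% in Mo and 25.5% in PMN, and of those called lower 24.4% and 40%. Acadl, the long-chain acyl-CoA dehydrogenase, rose by 1.48 ± 0.18 in Mo and 1.81 ± 0.19 in PMN. The electron transfer genes Etfb (1.2) and Etfdh (0.83) and the dehydrogenase gene Hadh (0.95) followed in Mo, and Etfdh (1.18), Hadha (1.16) of the trifunctional protein and the carnitine carrier gene Slc25a20 (1.08) in PMN. Leaving out single arrays gave 8 to 13 rises and 0 or 1 falls in Mo and 8 to 11 rises and 0 to 2 falls in PMN, and median centring gave 13 and 0, and 11 and 0. Joint quantile normalization gave 9 rises and 1 fall at 6 weeks in Mo (median 0.315) and 9 and 0 in PMN (median 0.472). Each subset fitted alone gave 9 and 1 in Mo and 10 and 2 in PMN, and the floor of 64 gave 10 and 0, and 9 and 1. At 3 weeks 7 of 15 rose in Mo, where 5.2% of all genes did. This number was 0 with the floor of 64 and with each subset fitted alone, and 1 with joint quantile normalization. The count was also 0 when naive replicate 1 or 2 or 3-week replicate 2 or 3 was left out and 12 without 3-week replicate 1.

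The genes whose levels ran most nearly parallel to a member were found by Pearson correlation over the arrays of 1 subset, which share the stage differences. In PMN (8 arrays, 3476 genes compared), Olr1 was nearest to Dlst, Ly75 and Ugt8a (r = 0.999 each). Abcg1 was nearest to Psenen (0.997), Acsl5 (0.993) and Idh3b (0.99), and Plin2 to Kat6b (0.991), Slc25a20 (0.984) and Klhl2 (0.983). In Mo (9 arrays, 2782 genes compared), Cd36 was nearest to Cdk14 (0.97), Slfn4 (0.968) and Cd7 (0.966), Msr1 to Capg (0.974), Ly96 (0.964) and Sqor (0.964), and Olr1 to Cenpq (0.981), Parvg (0.976) and Nedd1 (0.975). Apoe and Lpl had no near parallel in Mo: the nearest were Apcdd1 (0.776), Slc2a4 (0.727) and Per1 (0.726) for Apoe and Cmah (0.744), Atp1b1 (0.722) and Hspa1a (0.716) for Lpl.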

How the data were processed

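The deposited values are intensities that the authors made with RMA, per the submitters' processing notes; no version or setting is given in the sources used here. They ran from 9.76 to 32095, were read as linear and were put on the log2 scale with no pseudocount. Of 35557 features, 21789 carried 1 gene symbol; the highest-mean feature stood for each of 19938 genes. Pairs of Mo arrays shared a median of 942.5 distinct values, pairs of PMN arrays 251 and arrays of different subsets 146, so the subsets were treated as normalized apart and their levels were not tested against each other.

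A model of 6 group means over the 17 arrays (lmFit, contrasts.fit and eBayes of limma 3.58.1, run in R 4.3.3) gave 6 stage comparisons and 3 differences between the subsets of a stage change, two-sided. The number of arrays, 2 to 4 a group, limits the precision. The script was tested on simulated data. The members and lists were chosen with earlier results of these data known. Named were all members, for each list up to 4 genes with the largest changes among those past the threshold at 6 weeks in each subset, and for each member that passed in a subset the 3 most correlated genes among those with a range of at least 1 on the log2 scale, leaving out predicted genes, chemosensory receptors and antigen receptor segments. Counts were made for 8 lists of markers of cell types, and those of dendritic cells, platelets and erythroid cells are in the closing section. Alternatives were median centring, joint quantile normalization, a floor, a filter on dim genes, each subset alone, other eBayes settings, array weights, feature means, all features, the replicate number as a block, and each array left out.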

Additional observations from a re-analysis of the deposited data

Results flagged for a closer look

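There were 6 differences between the subsets in a stage change, as Mo minus PMN, that passed limma's test of the difference itself. For Olr1 they were -1.91 at 6 weeks against naive and -2.31 at 6 against 3 weeks. Olr1 rose in both subsets at 6 weeks, from naive means below the 95th percentile of the smell receptor genes. For Plin2 the differences were -1.02 and -1.08, with a rise in PMN past the threshold and values in Mo of -0.12 and -0.30 that did not pass. For Msr1 the difference was 0.78 at 6 weeks against naive, with a rise in Mo past the threshold and -0.19 in PMN, where its signal was dim, and for Abcg1 it was -0.70 at 6 against 3 weeks, with a rise in PMN past the threshold and -0.22 in Mo. The differences of Olr1 and Plin2 passed under every alternative run, and those of Msr1 and Abcg1 were lost without single arrays, as given with them above. In naive PMN, the only group of 4 arrays, no member passed the 95% limit of Dixon's test for an array standing apart; Olr1 came nearest, with replicate 3 at 5.91 and a gap of 0.819 of the range. Groups of 3 or 2 were not examined for that.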

How the results depend on the processing

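Over 81 member changes (9 genes in 9 comparisons), 19 passed; of their 507 values under alternatives 446 still passed and 0 changed sign. Of the 1653 values of the other changes 48 passed. In Mo at 3 weeks 2 members passed, and 1 did with joint quantile normalization, 0 with the floor, 0 with each subset alone, 1 with all features tested, 8 with array weights and 0 to 4 when single arrays were left out. In Mo at 6 weeks against naive 4 passed, 2 with each subset alone and 2 to 5 with single arrays left out. In Mo at 6 against 3 weeks 1 passed, 0 with joint quantile normalization, the floor, each subset alone or all features, 2 without dim genes, 9 with array weights and 0 to 2 with single arrays left out. For PMN the counts with single arrays left out were 0 at 3 weeks and 2 to 3 in both comparisons with 6 weeks; a lone remaining array of a group was assumed to vary like the others. For differences between subsets, array weights gave 5 at 3 weeks (0 otherwise), 5 at 6 weeks against naive (3) and 6 at 6 against 3 weeks (3), and leaving out arrays 0 to 2, 2 to 4 and 2 to 4. The array weights did not converge and gave 1 array, Mo 3-week replicate 2, a weight of 50.8 against 0.123 for replicate 1, so their counts say little. With the replicate number as a block, 4 members passed in Mo at 3 weeks (2 without) and 2 at 6 against 3 weeks (1 without), the added ones being Lpl (adjusted p = 0.0251) and Abcg1 (0.047) at 3 weeks and Apoe (0.0457) at 6 against 3 weeks; Mo arrays with the same number correlated from -0.09 to 0.63 in their deviations (median 0.475, 9 pairs), PMN arrays from -0.46 to 0.02 (6 pairs), and 7 of 9 Mo arrays correlated best with one of their own number, a hint from the data and not the design. Over all genes, 1202 were called in Mo at 3 weeks, against 83 with all features, 2 with each subset alone, 115 with the floor, 354 with joint quantile normalization, 5302 with the block, 15177 with array weights and 16 to 8911 with single arrays left out. In Mo at 6 weeks 9204 were called, against 5584 with each subset alone, 5241 with joint quantile normalization, 14171 with array weights and 4475 to 10686 with arrays left out; at 6 against 3 weeks 1497, against 877 with each subset alone, 2374 with the block, 7809 with array weights and 1000 to 2803. In PMN at 6 weeks 13047 were called, against 9383 to 13777 with arrays left out; at 6 against 3 weeks 11694, against 7725 with median centring and 7627 to 12662; at 3 weeks 0, against 13 with the floor. Differences between the subsets at 3 weeks numbered 1, against 1027 with the block, 8561 with array weights, 2 to 15 in 5 other settings and 0 to 3242 with arrays left out; at 6 weeks against naive 3487, against 6840 with array weights and 2098 to 4241; at 6 against 3 weeks 5818, against 11682 with array weights and 3641 to 9334. The block also ended the call on the Msr1 difference at 6 weeks (adjusted p = 0.0959). In Mo at 3 weeks median centring moved the share of higher genes from 86.2% to 97.4%, and in PMN at 6 against 3 weeks from 40.4% to 70.2%. For genes near the background, such as Msr1 in PMN, a further fall of RNA may not show, and a measured fall need not be one of RNA. Among the 1190 smell receptor genes, 682 were called lower in PMN at 6 weeks.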

Other observations

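Among the further lipid genes, some changed differently in the subsets at 6 weeks; these were chosen after their values were seen. Cpt1a, the enzyme that admits long-chain fatty acids to mitochondria, was at 8.67 and 9.73 on the 6-week PMN arrays against 8.52 to 8.91 in naive PMN, so that 1 of the 2 lay within the naive range. Its change in PMN was 0.47, but -0.06 without 6-week replicate 2 and 1.01 without replicate 1; the change in Mo was -0.44, which did not pass, and the difference of -0.91 passed but was -0.38 (limma's adjusted p = 0.255) without PMN 6-week replicate 2. It thus rests on 1 array. Hadh rose in Mo by 0.95 and was at -0.32 in PMN, which did not pass, and the difference of 1.27 passed. The fall of Pltp and Cyp27a1 in Mo exceeded their change in PMN (differences of -1.52 and -1.06). Mgll and Slc27a4 rose more in PMN (-1.47 and -1.14), and so did Lipg (-2.09). Decr1 was the 1 oxidation gene that fell in PMN, by 0.30, a call lost with median centring, with joint quantile normalization, with the replicate block and without PMN naive replicate 1 or 3 or either 6-week array. The differences of Hadh, Pltp, Cyp27a1, Mgll, Slc27a4 and Lipg passed under all 25 alternatives that give one. In all, 7 of 89 genes changed more in the higher direction in Mo and 17 in the lower, 27% against 17.5% of all genes.

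Of the other marker lists at 6 weeks against naive, 8 of 10 dendritic cell markers were lower and 1 higher in Mo, and 7 lower and 1 higher in PMN. Of 7 platelet markers, 4 were lower and 0 higher in Mo, and 3 lower and 1 higher in PMN. Of 8 erythroid markers, 2 were higher and 0 lower in Mo, and 1 higher and 1 lower in PMN. Of the B cell markers 7 of 9 were lower in Mo. Of the T and NK cell markers 5 of 9 were lower and 1 higher in PMN, and of the monocyte markers 4 of 10 were lower and 2 higher. Of the macrophage markers 2 of 16 were lower and 1 higher in PMN. These counts stand beside 21.8% of all genes called higher and 24.4% lower in Mo, and 25.5% and 40% in PMN. Among the 1190 smell receptor genes, 591 were called lower in Mo and 682 in PMN.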
